A study of Homo sapiens with 18 samples.

Results

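The comparison was between 2 doses of YKL-5-124 in the cells labelled XG1. It used 6 of the 18 libraries of the series, chosen by label: 3 kept for 24 h in 100 nM and 3 kept for 24 h in 1000 nM. YKL-5-124 is a covalent inhibitor of the kinase CDK7. The 3 XG1 libraries kept for 24 h in DMSO, the solvent control, set the level against which each dose was read, and 9 libraries of AMO1 with the same 3 treatments served for 1 comparison between lines. The labels call both lines multiple myeloma, a cancer of plasma cells, and give no other treatment or engineered allele in any group. All cells were grown in plates in RPMI medium with serum, and RNA was read from the 3' ends of transcripts (QuantSeq). The labels number the replicates without saying that they were separate cultures, so every p-value here measures only the spread between these samples. The question was which genes moved further between the doses and which had already moved in full at 100 nM.

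CDK7 forms the CDK-activating kinase with cyclin H (CCNH) and MAT1 (MNAT1). The free complex phosphorylates the activation loop of the kinases that drive entry into S phase and mitosis, and within the general transcription factor TFIIH it phosphorylates the tail of the largest subunit of RNA polymerase II at promoters. Many cell-cycle genes are switched on by E2F factors at the start of S phase, or later by complexes that bind CCAAT boxes and the so-called cell-cycle homology region (CHR).

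The labelled cell type was checked against defining markers. Of 8 plasma cell markers, 2 reached 1 FPKM in all 6 treated libraries. SDC1, which encodes the plasma cell surface protein CD138, had a mean of 24.2 FPKM in the XG1 DMSO libraries against 5070 in the AMO1 DMSO libraries, and IRF4, a transcription factor that plasma cells need, 0.533 against 77.5. All 8 erythroid markers reached 1 FPKM in all 6, with the fetal globin gene HBG1 at a mean of 1450 FPKM in the XG1 DMSO libraries against 0.941 in AMO1. Of the other lists, 4 of 7 myeloid, 1 of 5 B cell, 1 of 6 T and NK cell, 2 of 5 megakaryocyte and 0 of 6 stromal markers reached that level in all 6. The expression profile therefore did not match the label, and the libraries are called the libraries labelled XG1. The summed plasma cell markers ran from 19.1 to 65.9 FPKM at 100 nM and from 15.4 to 26 at 1000 nM, and the summed erythroid markers from 2300 to 2930 and from 2540 to 2840, ranges that overlap. Their part in the differences between the doses was not tested.

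The summed FPKM of all genes was 1066006 ± 76543 at 100 nM and 964297 ± 67860 at 1000 nM (mean ± SD, n = 3 each), so the higher dose stood at 90.5% of the lower (two-sided exact permutation p = 0.2; 3 against 3 cannot go below 0.1). In DMSO it was 1315368 ± 103067. Without the 100 most abundant genes the higher dose stood at 96.8% of the lower (two-sided exact permutation p = 0.6). The summed ERCC spike-ins were 184682 ± 2875 FPKM at 100 nM and 175487 ± 4266 at 1000 nM, so they too were lower at the higher dose. The median gene moved by 0.008 on the log2(FPKM+1) scale between the doses and by -0.152 from DMSO to 100 nM. In the 100 nM group replicate 3 had a size factor (its level relative to the typical library) of 0.81, against 1.05 and 1.044 for replicates 1 and 2, while replicate 2 had the lowest mean Spearman correlation with its group (0.935, against 0.941 for replicate 3). Counts of calls are therefore also given on a relative scale, after division by those size factors. In bulk RNA such as this, fewer cells of a type and less RNA per cell cannot be told apart.

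Among 11810 genes tested, few differed between the doses and many already differed from DMSO at the lower one. A gene was called where its limma p, adjusted over all genes tested by Benjamini-Hochberg, was under 0.05. Between 100 and 1000 nM, 38 genes were lower (0.322% of those tested) and 8 higher (0.0677%), and 1255 had an unadjusted p under 0.05. Relative to the median gene, 95 were lower (0.805%) and 20 higher. Against DMSO, 1181 genes were lower (10.0%) and 293 higher (2.48%) at 100 nM, and 1558 lower (13.2%) and 436 higher (3.69%) at 1000 nM. The relative scale split the calls against DMSO at 100 nM into 856 lower and 864 higher, and at 1000 nM 1212 lower and 1132 higher. The 3 comparisons share libraries, so their counts are set side by side and are not independent. All 46 calls between the doses kept their sign in every alternative in which the gene was tested, but the number called hung on single libraries. It was 13, 18 and 28 without DMSO replicates 1, 2 and 3, 10, 4 and 82 without 100 nM replicates 1, 2 and 3, 41 without 1000 nM replicate 1, and 2 and 5 without 1000 nM replicates 2 and 3. The majority of lower calls was not kept throughout: 3 genes were lower and 5 higher with the 6 treated libraries alone, 4 lower and 6 higher without 100 nM replicate 1, and 2 lower and 3 higher without 1000 nM replicate 3. The 1474 calls at 100 nM fell to 718, 895 and 571 without DMSO replicates 1, 2 and 3. The 1994 at 1000 nM became 1197 and 1047 without DMSO replicates 1 and 3, and 1144 and 1179 without 1000 nM replicates 2 and 3.

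**Figure D1:**
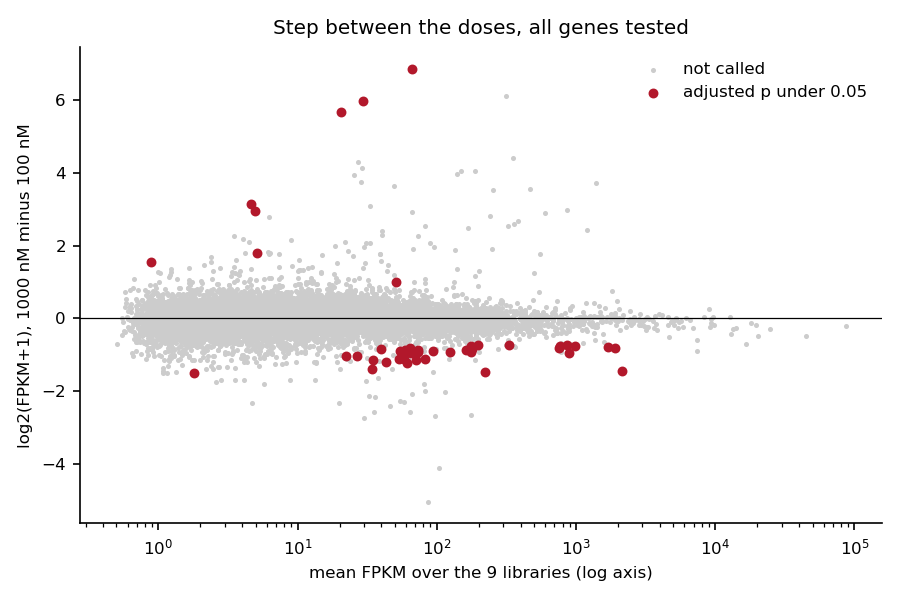
Change between the doses, as log2(FPKM+1) at 1000 nM minus 100 nM (vertical axis), against the mean FPKM over the 9 libraries labelled XG1 (horizontal log axis), 1 point for each of 11810 genes tested. Red points are the 46 genes called: most lie below 0, and the few with the highest positive values are noncoding RNAs.

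Genes were sorted into classes. Stepped genes were the 46 called between the doses. A gene was called level if it was called at 100 nM against DMSO, was not stepped, and had a 95% interval of the further step within 2-fold (log2 -1 to 1). There were 1221 such genes (10.3% of those tested and 82.8% of those called at 100 nM), 1004 lower and 217 higher at 100 nM. A further 238 were called at 100 nM but had a wider interval, so whether they were level could not be settled. Without DMSO replicates 1, 2 and 3 the level genes numbered 564, 745 and 471, and without 100 nM replicate 2 they numbered 801. With an interval within 1.5-fold they numbered 648. A level gene is thus one whose further change was bounded, not one shown to be unchanged. Most level genes named below were picked for the size of their 100 nM change. The 100 nM libraries enter both that change and the step, so the steps of these genes can lean back toward DMSO. Below, means are over the 3 libraries of a group, given in the order DMSO, 100 nM and 1000 nM where 3 stand together, and changes are on the log2(FPKM+1) scale. Counts of list members stand beside the shares of all genes tested. Those were 10.0% lower and 2.48% higher at 100 nM, 13.2% and 3.69% at 1000 nM, and 0.322% and 0.0677% between the doses. A list with 0 called between the doses is thus near the share of all genes. On the relative scale 856 of 11804 genes were lower and 864 higher at 100 nM, so counts on that scale stand beside those instead. At an unadjusted p under 0.05 there were 1255 of 11810 genes between the doses, in both directions together. A list near that share is like all genes tested.

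**Figure D2:**
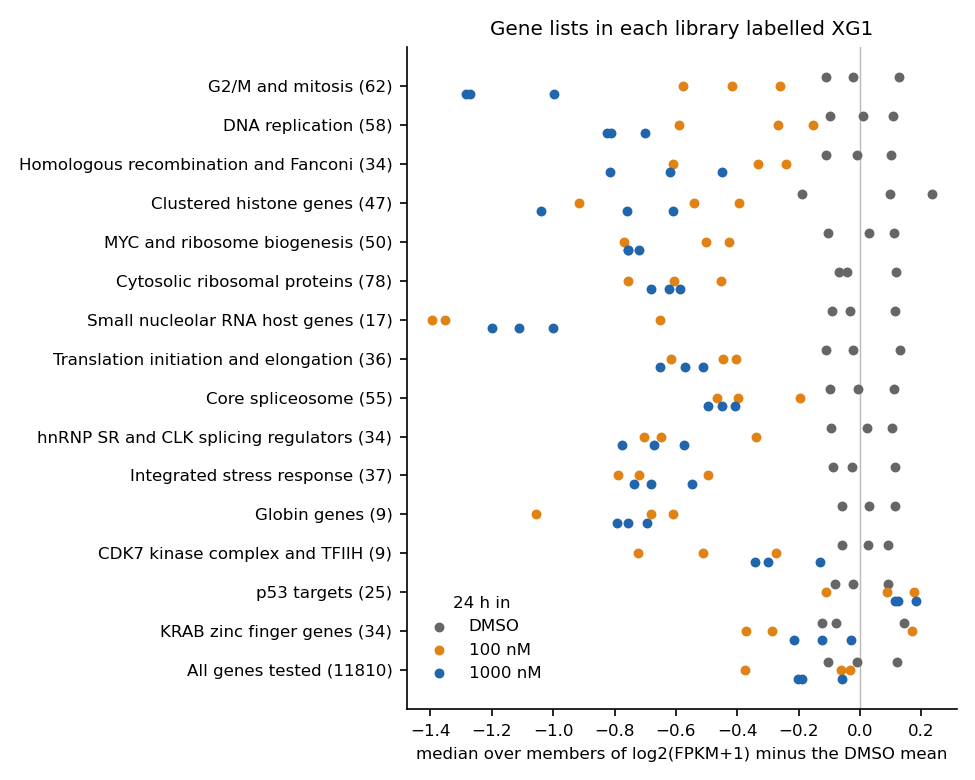
For 15 gene lists and for all genes tested, the median over the members of log2(FPKM+1) minus the mean of the 3 DMSO libraries, 1 point per library (number of members tested in brackets). The mitosis and DNA replication lists have all 1000 nM points below all 100 nM points, while those for ribosomal proteins, splicing regulators, stress response and globins overlap between the doses.

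Genes of mitosis made up the largest share of what fell between the doses. Of 62 members of the G2/M and mitosis list, 61 had a lower fitted value at 1000 nM than at 100 nM, against 48.8% of all genes tested. Called lower were 14 and called higher 0, against 0.322% and 0.0677% of all genes tested. The median step was -0.73 against 0.008 for all genes tested. In 42 of the 62, every 1000 nM library lay below every 100 nM library, against 6.49% of all genes tested. Against DMSO, 18 of 62 were called lower at 100 nM (median -0.48; on the relative scale 13 lower and 2 higher) and 53 at 1000 nM (median -1.19). Relative to the median gene, 21 members were called lower between the doses. The count of 14 became 5, 8 and 9 without DMSO replicates 1, 2 and 3, 2 and 1 without 100 nM replicates 1 and 2, and 1 without either 1000 nM replicate 2 or 1000 nM replicate 3. Relative to the median gene, the fits without 1000 nM replicate 2 or 3 gave 11 each, and those without 100 nM replicate 1 and 1000 nM replicate 1 gave 12 and 13.

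AURKB encodes Aurora B, the kinase of the chromosomal passenger complex that corrects attachments of chromosomes to the spindle. It stood at 339, 331 and 401 FPKM in the 3 DMSO libraries, 229.8, 237 and 206 at 100 nM and 91.7, 74.7 and 75.8 at 1000 nM. The 3 groups did not overlap, and the gene fell at each dose. The step between the doses was -1.47 (SE 0.13, limma adjusted p = 0.001), and the change from DMSO to 100 nM was -0.66 (SE 0.13, limma adjusted p = 0.00889). AURKB kept its call between the doses in each of the 9 fits that left out 1 library, with steps from -1.56 to -1.42.

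CDC20, the activator of the anaphase-promoting complex, showed the same order. It measured 110.4, 104 and 119 FPKM in DMSO, 84.4, 70.9 and 58.7 at 100 nM and 34.1, 30.8 and 29.6 at 1000 nM, with no overlap between groups. Its step was -1.14 (SE 0.15, limma adjusted p = 0.0172). The call was lost without 100 nM replicate 2, 1000 nM replicate 2 or 1000 nM replicate 3, where the adjusted p was at most 0.0951 and the step stayed between -1.27 and -1.01.

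Other mitotic genes were not called at 100 nM and fell between the doses. CCNB2, a mitotic cyclin, had 205, 197 and 215 FPKM in DMSO, 186, 180.2 and 173 at 100 nM and 107, 100.2 and 85.4 at 1000 nM. The 100 nM change was -0.20 (SE 0.12, limma adjusted p = 0.306) and the step -0.88 (SE 0.12, limma adjusted p = 0.0173). CDCA8 (borealin, a partner of Aurora B in the passenger complex) averaged 80.5, 71.9 and 29.6 FPKM in the 3 groups in that order, with a step of -1.24 (SE 0.17). SPC25, a subunit of the NDC80 complex that holds spindle microtubules at the kinetochore, averaged 49.3, 56.2 and 23.8 FPKM, a step of -1.22 (SE 0.17). In all 3 genes every 1000 nM library was below every 100 nM library. For each of the 3 the call was lost without 100 nM replicate 1 or 2 or without 1000 nM replicate 2 or 3, with adjusted p of at most 0.0951. CDC25C, the phosphatase that activates CDK1, averaged 21.5 FPKM in DMSO, 30.4 at 100 nM (limma adjusted p = 0.0698, not called) and 14.4 at 1000 nM, a step of -1.03 (SE 0.16) whose call was lost in 5 of the 9 fits that left out a library. CDKN3, a phosphatase of cyclin-dependent kinases, had a step of -1.39 whose call was lost in all 9 of those fits. Outside the list, PSRC1, a spindle protein, had a step of -1.14 and POC1A, a centriole protein, -1.13, with calls lost in 5 and 7 of them. CDC25C and SPC25 each overlap another gene in RefSeq.

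The proliferation markers TOP2A and MKI67 were not called between the doses. TOP2A, the topoisomerase that untangles DNA before mitosis, had 333, 303 and 316 FPKM in DMSO, 190.2, 226 and 108 at 100 nM and 67.1, 76.9 and 80.5 at 1000 nM. The doses did not overlap, and the step was -1.15 (95% interval -1.63 to -0.67) with an adjusted p of 0.0564. MKI67, which encodes the Ki-67 antigen of cycling cells, averaged 14.5, 12.9 and 6.26 FPKM, a step of -0.92 (95% interval -1.37 to -0.46) with an adjusted p of 0.116. Relative to the median gene both were called, with adjusted p of 0.0174 and 0.0169. In the list 9 members were level. MAD2L1, which encodes the spindle checkpoint protein MAD2, had 77, 66.1 and 87.8 FPKM in DMSO, 46.7, 34.1 and 31.2 at 100 nM and 30.8, 27.4 and 26.5 at 1000 nM. Its 100 nM change was -1.04 (SE 0.17, limma adjusted p = 0.00483), and its further step was -0.37 (95% interval -0.76 to 0.01).

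The promoters of 4 stepped genes are shown because their letters differ in the motifs named above. They come from RefSeq (GRCh38.p14) and run from 250 bases before to 50 after the annotated start, 5′ to 3′ on the gene's strand. The files themselves were built on hg19, and no position from them is used. Capitals mark matches on either strand to TTCCCGC (E2F), TTTGAA (CHR) and CCAAT. No marked motifs overlap each other in these 4.
AURKB promoter (chr17:8210176-8210475, minus strand): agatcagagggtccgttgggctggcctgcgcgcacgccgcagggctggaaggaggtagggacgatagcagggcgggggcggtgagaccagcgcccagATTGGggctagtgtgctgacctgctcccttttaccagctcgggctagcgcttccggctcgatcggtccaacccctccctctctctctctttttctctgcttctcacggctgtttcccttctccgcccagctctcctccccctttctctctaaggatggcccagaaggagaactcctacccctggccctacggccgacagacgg
CDC20 promoter (chr1:43358731-43359030, plus strand): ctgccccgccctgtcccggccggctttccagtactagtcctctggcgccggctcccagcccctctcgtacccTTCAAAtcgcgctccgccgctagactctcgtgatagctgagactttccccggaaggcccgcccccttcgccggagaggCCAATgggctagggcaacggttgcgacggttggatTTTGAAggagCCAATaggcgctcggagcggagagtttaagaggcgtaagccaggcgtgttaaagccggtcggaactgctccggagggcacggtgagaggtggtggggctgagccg
CCNB2 promoter (chr15:59104896-59105195, plus strand): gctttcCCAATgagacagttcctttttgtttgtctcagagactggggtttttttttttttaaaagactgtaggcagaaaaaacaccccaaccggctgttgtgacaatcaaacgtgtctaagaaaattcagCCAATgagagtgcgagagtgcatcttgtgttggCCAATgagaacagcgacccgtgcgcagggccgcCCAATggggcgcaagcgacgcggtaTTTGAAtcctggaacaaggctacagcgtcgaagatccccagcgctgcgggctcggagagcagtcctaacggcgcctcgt
CDT1 promoter (chr16:88803539-88803838, plus strand): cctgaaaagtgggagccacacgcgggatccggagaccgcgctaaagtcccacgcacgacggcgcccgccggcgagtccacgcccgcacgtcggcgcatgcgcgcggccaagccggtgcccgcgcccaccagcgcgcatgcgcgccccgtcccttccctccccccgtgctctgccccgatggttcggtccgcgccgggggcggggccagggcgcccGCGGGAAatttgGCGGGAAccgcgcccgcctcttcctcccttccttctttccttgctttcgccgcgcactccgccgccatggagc
The CCNB2 window holds 4 CCAAT matches and 1 TTTGAA match, and that of CDC20 holds 2 of each. The CDT1 window has 2 matches to TTCCCGC and none to the other motifs, and the AURKB window has a single CCAAT match. Each gene has 1 window at 1 annotated start. Motifs at other starts, of AURKB or of any gene counted below, were not searched, so a window without a motif does not show a promoter without it. Of the 37 protein-coding genes that stepped down, 33 had a promoter in the table. CCAAT was found in 22 of the 33 (66.7%), against 37.5% of the 9341 promoters of genes tested and 35.7% of all 27305 RefSeq promoters in the table. TTTGAA was found in 10 (30.3%, against 9.72% and 15.4%) and TTCCCGC in 6 (18.2%, against 10.7% and 6.56%). Among the level protein-coding genes that were lower at 100 nM, 800 promoters were matched, with CCAAT in 38.8%, TTTGAA in 12.9% and TTCCCGC in 12.1%. These are counts of letters in a window, not of bound sites. Of the 37 genes 14 stand in the mitosis list and 5 in the replication list, and these motifs are known from such genes. Cell-cycle genes that did not step were not counted apart, so the shares cannot speak to dose. The windows of NUSAP1 and OIP5 overlap, and each was counted.

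DNA replication genes also leaned downward between the doses, by less. Of 58 members, 54 had a lower fitted value at 1000 nM, against 48.8% of all genes tested, and the median step was -0.34. Called lower were 5 and called higher 0, against 0.322% and 0.0677% of all genes tested. In 24 of the 58 every 1000 nM library lay below every 100 nM library (41.4%, against 6.49% of all genes tested). Against DMSO 12 were called lower and 1 higher at 100 nM (median -0.37; 9 and 1 on the relative scale), and 39 lower at 1000 nM (median -0.77). Relative to the median gene, 10 were called lower between the doses. The count of 5 became 1, 1 and 2 without DMSO replicates 1, 2 and 3, 1, 0 and 8 without 100 nM replicates 1, 2 and 3, and 0 without 1000 nM replicate 2 or 3. The relative count of 10 became 6 without DMSO replicate 1, 100 nM replicate 1 or 1000 nM replicate 3, and was 7 to 10 in the other such fits.

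CDT1, which loads the MCM helicase at origins, had 132, 106 and 122 FPKM in DMSO, 87.9, 84.1 and 87.2 at 100 nM and 45.7, 38.8 and 33.3 at 1000 nM. The 3 groups were fully separate. Its step was -1.13 (SE 0.14, limma adjusted p = 0.0158), while the 100 nM change of -0.46 had an adjusted p of 0.059. The call was lost without 100 nM replicate 2, 1000 nM replicate 2 or 1000 nM replicate 3 (adjusted p up to 0.0951). GINS2, part of the replicative helicase, averaged 72.2 FPKM in DMSO, 75.7 at 100 nM and 41.1 at 1000 nM, a step of -0.86 (SE 0.14, limma adjusted p = 0.0297). TK1, the thymidine kinase of S phase, had 74.2, 56.4 and 56.1 FPKM at 100 nM, overlapping 66.8, 61.5 and 75.2 in DMSO, and 36.6, 30 and 30.6 at 1000 nM, a step of -0.92 (SE 0.16, limma adjusted p = 0.0364). RRM2, the small subunit of ribonucleotide reductase, averaged 47.9, 46.6 and 25.4 FPKM, a step of -0.84 (SE 0.14). The calls for GINS2, TK1 and RRM2 were lost in 6, 7 and 8 of the 9 fits that left out a library, with steps from -0.94 to -0.78, -1.004 to -0.78 and -0.97 to -0.75.

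PCNA, the sliding clamp of replication, was instead level. It had 247, 189.9 and 248 FPKM in DMSO, 118, 78.3 and 119 at 100 nM and 95.2, 91.5 and 87.5 at 1000 nM. Both doses lay below DMSO and overlapped each other. From DMSO to 100 nM the change was -1.13 (SE 0.17, limma adjusted p = 0.0031) and the further step -0.17 (95% interval -0.56 to 0.21). CDC6, which acts with CDT1 at origins, averaged 30.3, 28 and 21 FPKM and was called neither at 100 nM nor between the doses, with a step of -0.40 (95% interval -0.75 to -0.06). Of 34 genes of homologous recombination and the Fanconi pathway, which repair breaks and crosslinks, 0 were called between the doses by limma (1 on the relative scale). At an unadjusted p under 0.05 there were 10, all lower. Against DMSO 5 were lower at 100 nM and 13 at 1000 nM, where 10.0% and 13.2% of all genes tested were lower. CHEK1, the checkpoint kinase of stalled forks, averaged 25, 10.5 and 8.84 FPKM in DMSO and at the 2 doses, with a step of -0.22 (95% interval -0.80 to 0.36), and its 100 nM call was lost without DMSO replicate 1 or 3 (adjusted p up to 0.0561).

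**Figure D3:**
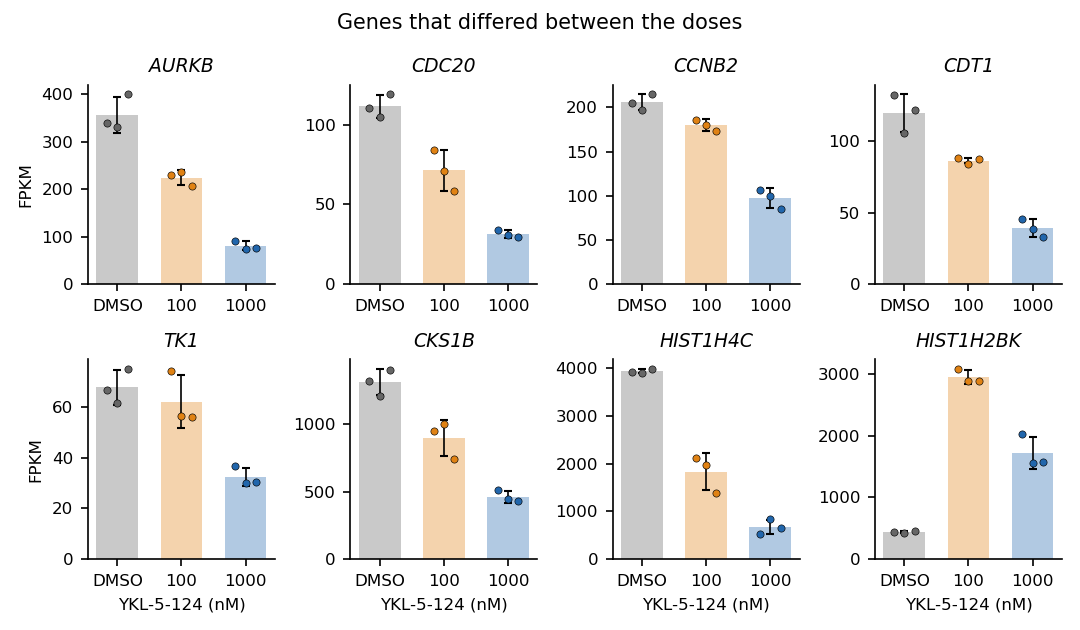
FPKM in each library labelled XG1 for 8 genes that differed between the doses. Bars are means, error bars SD (n = 3), points the single libraries. In each gene all 1000 nM points lie below all 100 nM points, and HIST1H2BK is the one gene of these that stood higher in both doses than in DMSO.

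Among 15 cyclins and kinases of G1, 2 were called lower between the doses. CKS1B, a small partner of cyclin-dependent kinases that helps remove the inhibitor p27, had 1323, 1208 and 1404 FPKM in DMSO, 952, 999 and 742 at 100 nM and 509.7, 443 and 431 at 1000 nM. It fell at each dose without overlap, with a step of -0.95 (SE 0.14, limma adjusted p = 0.023) and a 100 nM change of -0.56 (adjusted p = 0.0228). CDK2, the kinase of S phase entry, had 182, 173 and 181 FPKM in DMSO, 246, 210.3 and 208 at 100 nM and 155, 129 and 108 at 1000 nM, a step of -0.77 (SE 0.14). The step call was lost in 4 of 9 fits for CKS1B (without 100 nM replicates 1 and 2 or 1000 nM replicates 2 and 3) and in 8 of 9 for CDK2. CCND3, a D-type cyclin, was higher in both doses at means of 125, 182 and 188 FPKM. Its 100 nM change of 0.54 (adjusted p = 0.0194) lost its call without DMSO replicate 1 or 2 or 100 nM replicate 2 (adjusted p up to 0.0751), and the further step was 0.05 (95% interval -0.23 to 0.32). Of 19 E2F and retinoblastoma family genes, 0 were called between the doses by limma (3 had an unadjusted p under 0.05, all lower), with a median step of -0.11. E2F1 itself averaged 11.2, 7.22 and 5.66 FPKM, with a step of -0.32 (95% interval -0.77 to 0.13).

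Histone genes split in both directions. Of 47 clustered histone genes tested, 10 were lower and 9 higher at 100 nM against DMSO. Between the doses 2 were lower and 0 higher, with a median step of -0.39, and 12 had intervals too wide to class. Near-identical copies share reads in this family, so single members are uncertain. Whether these 3' libraries capture histone transcripts with and without a poly(A) tail alike was not tested, so the values are for the transcripts captured. HIST1H4C, a replication-coupled histone H4 gene, had 3928, 3906 and 3990 FPKM in DMSO, 2127, 1979 and 1396 at 100 nM and 532, 836 and 643 at 1000 nM. The change was -1.13 at 100 nM (limma adjusted p = 0.00416) and the step -1.45 (SE 0.18, limma adjusted p = 0.0158), a call lost without 100 nM replicate 2 or 1000 nM replicate 3 (adjusted p up to 0.0627).

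HIST1H2BK turned back. This histone H2B gene makes polyadenylated transcripts and overlaps a neighbouring histone gene in RefSeq. It had 441, 422 and 454 FPKM in DMSO, 3089, 2887 and 2885 at 100 nM and 2027, 1559 and 1579 at 1000 nM. The rise at 100 nM was 2.75 (SE 0.12, limma adjusted p = 5.7e-07) and the step down -0.79 (SE 0.12, limma adjusted p = 0.0291), which lost its call in 6 of the 9 fits that left out a library. HIST1H1C, a linker histone gene, had 410, 349.7 and 481, then 2014, 1710 and 1728, then 1184, 1207 and 1006 FPKM. It rose at 100 nM by 2.14 (SE 0.14, limma adjusted p = 1.56e-05). Its step of -0.68 (95% interval -0.99 to -0.38) had an adjusted p of 0.0784, and on the relative scale of 0.0298. HIST2H2BE rose from a mean of 8.57 FPKM to 38.4 at 100 nM and stood at 32.9 at 1000 nM, a step of -0.18 (95% interval -0.63 to 0.27).

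The target's own complex was read next. Of 9 members of the CDK7 complex and TFIIH tested, 0 were called between the doses by limma. Among all genes 0.322% were lower there and 0.0677% higher. At an unadjusted p under 0.05 there were 2 members, both higher. A lower fitted value at 1000 nM was seen in 1 of the 9, against 48.8% of all genes tested, and the median step was 0.33. CDK7 had 19.1, 25.5 and 39.3 FPKM in DMSO, 22.8, 10.1 and 10.7 at 100 nM and 19, 20.7 and 18.2 at 1000 nM. The groups overlapped, and 100 nM replicates 2 and 3 were the lowest libraries. The step was 0.48 (95% interval -0.19 to 1.15) and the 100 nM change -0.93 (adjusted p = 0.0681). CCNH and MNAT1 showed steps of 0.73 (95% interval 0.17 to 1.30) and 0.69 (95% interval -0.03 to 1.41), neither called. CDK7 and CCNH each overlap another gene in RefSeq, and whether the counting used strand was not stated in the sources used here. Of the TFIIH core subunits, GTF2H3 averaged 28.8, 11.3 and 16.9 FPKM, with a 100 nM change of -1.26 (SE 0.19, limma adjusted p = 0.00292). GTF2H5 averaged 16.8, 9.73 and 12.2 FPKM, with a 100 nM change of -0.76 whose call was lost in 6 of 9 fits that left out a library. The median step of this list was 0.13 without 100 nM replicate 3 and 0.52 without 100 nM replicate 1.

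POLR2A, of the transcription machinery, rose at 100 nM and was level. It encodes the largest subunit of RNA polymerase II, whose tail CDK7 phosphorylates. It had 52.2, 40 and 49.3 FPKM in DMSO, 132, 144 and 126 at 100 nM and 148, 129.6 and 118 at 1000 nM. Both doses were above all DMSO libraries and overlapped each other. The rise at 100 nM was 1.495 (SE 0.14, limma adjusted p = 0.00022) and the further step -0.03 (95% interval -0.34 to 0.28). Of the 12 polymerase II subunits 2 were higher and 2 lower at 100 nM. All 12 had intervals of the further step within 2-fold, as did 9452 of all 11810 genes tested. Of 28 pausing and elongation factors, 2 were lower at 100 nM, where 10.0% of all genes tested were lower. By limma 0 were called between the doses, where 0.322% of all genes were lower and 0.0677% higher (1 member had an unadjusted p under 0.05).

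The protein synthesis machinery had moved at 100 nM and showed little more at 1000 nM. Of 78 cytosolic ribosomal protein genes, 55 were lower at 100 nM (40 on the relative scale) and 63 at 1000 nM, 0 were called between the doses by limma (2 had an unadjusted p under 0.05), and 54 were level. Their median was -0.62 at 100 nM and -0.62 at 1000 nM, with a median step of -0.05. In 4 of 78 every 1000 nM library lay below every 100 nM library (5.13%, against 6.49% of all genes tested). RPL6, of the large subunit, had 720.3, 771 and 898 FPKM in DMSO, 448, 277 and 256 at 100 nM and 223, 301 and 224 at 1000 nM. The doses overlapped below DMSO. At 100 nM the change was -1.32 (SE 0.20, limma adjusted p = 0.00314) and the step -0.36 (95% interval -0.81 to 0.09). RPS15A, of the small subunit, averaged 4988, 2311 and 2373 FPKM, with a step of 0.03 (95% interval -0.27 to 0.32). Ribosomal protein genes have many processed copies in the genome, so single members are uncertain.

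Part of the genes that build ribosomes and start translation were lower at 100 nM. Of 50 members of the ribosome biogenesis list, 21 were lower at 100 nM (19 on the relative scale; median -0.57), 32 at 1000 nM (median -0.72), 0 were called between the doses by limma (1 on the relative scale, and 9 had an unadjusted p under 0.05) and 20 were level. The median step was -0.16, with 37 of 50 below 0, against 48.8% of all genes tested. GNL3 (nucleostemin) had 22.1, 20.7 and 19.7 FPKM in DMSO, 10.6, 5.22 and 4.86 at 100 nM and 4.3, 6.69 and 5.88 at 1000 nM, a step of -0.20 (95% interval -0.77 to 0.38). Of 36 translation initiation and elongation genes, 17 were lower at 100 nM (12 on the relative scale), 22 at 1000 nM and 0 between the doses by limma (0 also at an unadjusted p under 0.05), with 16 level. EIF4A2, an RNA helicase of initiation, had 249.5, 241 and 283 FPKM in DMSO, 106, 70.5 and 84.6 at 100 nM and 106, 102 and 94 at 1000 nM. The 100 nM change was -1.57 (SE 0.15, limma adjusted p = 0.00024), and the doses overlapped, with a step of 0.23 (95% interval -0.11 to 0.56). EIF3E, a scaffold subunit of the initiation factor eIF3, had a 100 nM change of -1.44 and a step of 0.21 (95% interval -0.24 to 0.67).

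Host genes of small nucleolar RNAs, whose introns give the guides of ribosomal RNA modification, had the lowest median of the 39 lists at 100 nM. Of 17, 12 were lower and 1 higher at 100 nM, with a median of -1.11. At 1000 nM 14 were lower, with a median of -1.10. The median step was -0.02 and 13 were level. SNHG3 had 118, 116 and 146 FPKM in DMSO, 39.5, 32.2 and 28.1 at 100 nM and 42, 42.5 and 49.5 at 1000 nM. Every 1000 nM library was above every 100 nM library, as in 6.60% of all genes tested, while all 6 stayed below DMSO. Against DMSO the 100 nM change was -1.91 (SE 0.16, limma adjusted p = 8.76e-05) and the step 0.42 (95% interval 0.08 to 0.77), not called (adjusted p = 0.369). SNHG12 was also lowest at 100 nM, with means of 72.7, 14.2 and 19.9 FPKM and a step of 0.47 (95% interval -0.01 to 0.95). SNHG3 and SNHG12 each overlap another gene in RefSeq, as do GNL3, HNRNPH3, JUNB, GINS2, CCNA2, CHEK1, IFIT3 and SNORA28 among the genes described here. Without 100 nM replicate 3 the median step of this list was -0.19.

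Some splicing factor genes were lower at 100 nM. Of 34 hnRNP, SR and CLK splicing regulators, 19 were lower at 100 nM (15 on the relative scale; median -0.57), 23 at 1000 nM and 0 between the doses by limma (4 had an unadjusted p under 0.05, all lower), and all 19 were level. HNRNPH3 had 153, 153 and 165 FPKM in DMSO, 80.2, 47.1 and 54.6 at 100 nM and 68.1, 62.4 and 63.9 at 1000 nM, a 100 nM change of -1.39 (SE 0.17, limma adjusted p = 0.00117) with a step of 0.13 (95% interval -0.25 to 0.51). HNRNPR changed by -1.20 on the log2 scale at 100 nM and had a step of 0.12 (95% interval -0.23 to 0.47). Of 55 core spliceosome genes 15 were lower at 100 nM (10 lower and 3 higher on the relative scale), all 15 level, and 24 were lower at 1000 nM. SNRPF, a ring protein of the spliceosomal particles, averaged 880.5, 437 and 426 FPKM, with a step of -0.01 (95% interval -0.38 to 0.37).

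**Figure D4:**
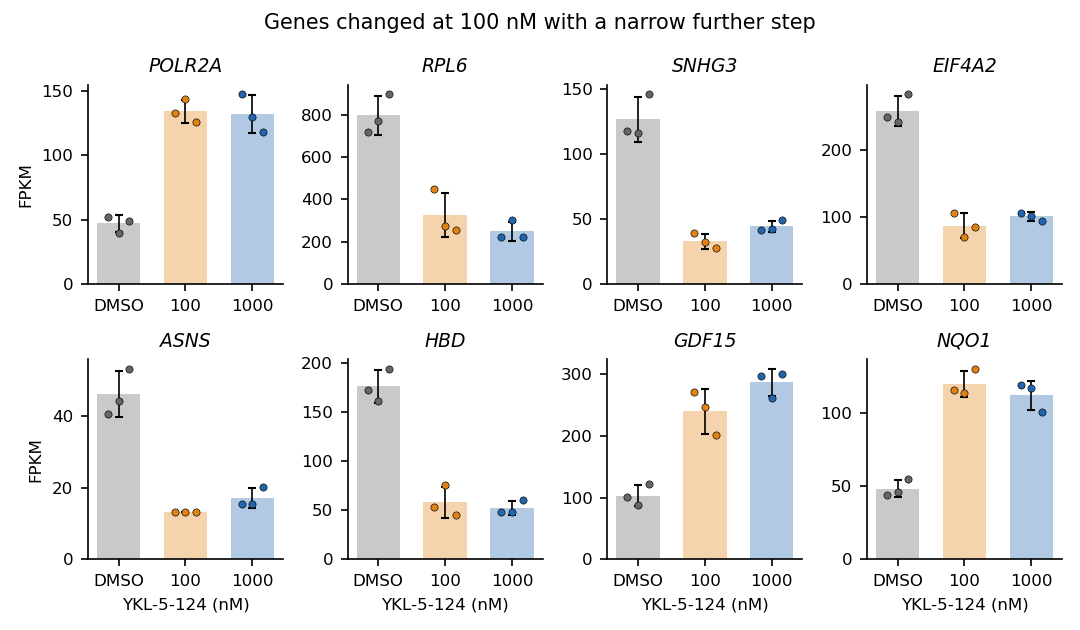
FPKM in each library labelled XG1 for 8 level genes. Bars are means, error bars SD (n = 3), points the single libraries. The 100 nM and 1000 nM points lie on the same side of DMSO in each gene, with POLR2A, GDF15 and NQO1 above it and the others below.

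Stress genes called at 100 nM were mostly level, as were 82.8% of all genes called there. Of 37 genes of the integrated stress response, which ATF4 drives when amino acids or folding capacity run short, 21 were lower and 0 higher at 100 nM (17 and 0 on the relative scale), and 20 of these were level. The median was -0.62 at 100 nM and -0.70 at 1000 nM, with a median step of 0.05 (-0.08 without 100 nM replicate 3). ASNS, asparagine synthetase, had 40.7, 44.3 and 53.2 FPKM in DMSO, 13.2, 13.2 and 13.1 at 100 nM and 15.3, 15.4 and 20.2 at 1000 nM. All treated libraries were well below DMSO, and those at 1000 nM were slightly above those at 100 nM. At 100 nM the change was -1.72 (SE 0.17, limma adjusted p = 0.000221) and the step 0.33 (95% interval -0.03 to 0.69). INHBE, a secreted activin subunit and ATF4 target, changed by -1.46 on the log2 scale at 100 nM and had a step of 0.27 (95% interval -0.23 to 0.76). Of 37 genes of endoplasmic reticulum folding, 8 were lower and 1 higher at 100 nM (3 and 1 on the relative scale), all 9 level. HSPA5, the chaperone BiP, averaged 294, 168 and 184 FPKM, with a step of 0.14 (95% interval -0.12 to 0.40). HERPUD1, which serves protein degradation at that membrane, averaged 24.2, 11.2 and 12.4. Of 21 heat shock and chaperone genes 8 were lower and 1 higher at 100 nM (5 and 2 on the relative scale), again all level. HSPA8, the constitutive cytosolic chaperone, moved by -0.89 at 100 nM and -0.16 between the doses, and the mitochondrial chaperone HSPD1 by -0.91 and 0.04.

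Of 9 globin genes, 5 were lower at 100 nM (median -0.77), all of them level, and 6 at 1000 nM, with a median step of -0.10. HBD, the delta globin gene, had 173, 161 and 194 FPKM in DMSO, 52.9, 75.3 and 44.9 at 100 nM and 48.1, 47.7 and 60.1 at 1000 nM. The doses overlapped below DMSO, with a 100 nM change of -1.62 (SE 0.18, limma adjusted p = 0.000655) and a step of -0.12 (95% interval -0.53 to 0.28). The embryonic gene HBE1 moved by -1.34 at 100 nM and -0.10 between the doses. HBG1 averaged 1448, 890.5 and 921 FPKM and HBA2 590.2, 348 and 307, with steps of 0.04 (95% interval -0.20 to 0.29) and -0.17 (95% interval -0.48 to 0.14). Each has a near-identical neighbour, so their split is uncertain. The heme synthesis and iron uptake list had 2 of 26 members lower and 3 higher at 100 nM (1 and 3 on the relative scale). Among all genes tested 10.0% were lower and 2.48% higher there, and the relative scale gave 856 lower and 864 higher of 11804. TFRC, the transferrin receptor that brings in iron, fell from a mean of 129 to 65.3 FPKM at 100 nM and stood at 71.4 at 1000 nM. FTL, the ferritin light chain that stores iron, rose from 2189, 2145 and 2218 FPKM in DMSO to 3733, 3718 and 3192 at 100 nM and had 3608, 3354 and 3200 at 1000 nM, a 100 nM change of 0.70 (SE 0.11, limma adjusted p = 0.00362) and a step of -0.07 (95% interval -0.31 to 0.18).

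In other red cell lists few members were called at 100 nM, where 10.0% of all genes tested were lower and 2.48% higher. Erythroid transcription factor genes had 2 of 17 members lower and 0 higher, near those shares (2 and 2 on the relative scale). Red cell membrane and blood group genes had 3 of 19 lower and 1 higher (3 and 2 on the relative scale). GYPB, a glycophorin of the red cell surface, averaged 1302, 1217 and 1253 FPKM and was called in no comparison, with a step of 0.06 (95% interval -0.26 to 0.38). GATA1, the master transcription factor of the lineage, had 28.7, 39.6 and 23.6 FPKM at 100 nM and 51.1, 34.9 and 43.9 at 1000 nM, a step of 0.50 (95% interval 0.07 to 0.94) that was not called. KLF1, an activator of globin genes, had 94.5, 91.6 and 113 FPKM in DMSO, 53, 50.2 and 44 at 100 nM and 32.2, 27.5 and 29.9 at 1000 nM. The 3 groups did not overlap. The 100 nM change was -1.005 (SE 0.14, limma adjusted p = 0.00194). The step was -0.70 (95% interval -1.003 to -0.39) with an adjusted p of 0.0685, and of 0.0105 on the relative scale.

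GDF15 and NQO1 were among the 217 level genes that were higher at 100 nM. GDF15, a secreted stress cytokine, had 100.1, 87.5 and 122 FPKM in DMSO, 272, 246 and 201 at 100 nM and 298, 262 and 301 at 1000 nM. Both doses lay above DMSO and overlapped. The rise was 1.21 (SE 0.15, limma adjusted p = 0.00124) and the further step 0.27 (95% interval -0.07 to 0.61). GDF15 stands in the p53 target list, where 3 of 25 members were higher at 100 nM and the median there was 0.02. On the relative scale 5 were higher, beside 864 of 11804 genes. Between the doses 0 members were called by limma. At an unadjusted p under 0.05 there were 4, all higher, beside 1255 of 11810 genes in either direction. CDKN1A, which encodes the p53-induced inhibitor p21, averaged 2.46, 4.79 and 3.43 FPKM and was called in no comparison, with a step of -0.36 (95% interval -1.04 to 0.32). NQO1, a quinone reductase and NRF2 target, had 43.7, 45.8 and 54.5 FPKM in DMSO, 116, 114 and 129.8 at 100 nM and 119, 116 and 100.1 at 1000 nM, a rise of 1.30 (SE 0.13, limma adjusted p = 0.000297) and a step of -0.10 (95% interval -0.39 to 0.20). In the NRF2 and redox list 2 of 24 members were higher and 2 lower at 100 nM, and 4 higher and 0 lower on the relative scale. CCDC92, a centriolar protein that overlaps DNAH10 in RefSeq, rose from a mean of 3.96 to 20.3 FPKM and stood at 22.1 at 1000 nM. VAMP5, a vesicle fusion protein, had 0.604, 0.137 and 1.2 FPKM in DMSO, 6.08, 7.51 and 4.42 at 100 nM and 6.26, 10.7 and 2.54 at 1000 nM.

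The protein-coding genes with the deepest fall at 100 nM among those that were level were led by MRLN, which encodes the micropeptide myoregulin. It had 189, 179 and 196 FPKM in DMSO, 27.1, 11.6 and 25.2 at 100 nM and 27.9, 23.2 and 15 at 1000 nM. The change at 100 nM was -3.17 (SE 0.29, limma adjusted p = 0.000185) and the further step 0.09 (95% interval -0.55 to 0.73). CALB1, the calcium buffer calbindin, averaged 47.7, 11.2 and 11.3 FPKM, TEX19 25.9, 5.26 and 6.78, and the glycosyltransferase GBGT1 18, 4.35 and 3.21. Of 28 cholesterol synthesis and SREBP target genes, 7 were lower and 1 higher at 100 nM (5 and 2 on the relative scale), 7 were level and 0 were called between the doses by limma (2 had an unadjusted p under 0.05). INSIG1, a brake on SREBP processing, moved by -1.02 at 100 nM and -0.31 (95% interval -0.76 to 0.14) between the doses. MCL1, which encodes a short-lived survival protein, averaged 154, 159.6 and 159 FPKM, a gene of the BCL2 family, of which 0 of 24 were called between the doses by limma (2 had an unadjusted p under 0.05). Of 34 KRAB zinc finger genes, which encode transcriptional repressors, 0 were called in any of the 3 comparisons by limma, and 1 was lower and 1 higher between the doses at an unadjusted p under 0.05.

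Some genes moved one way at 100 nM and back at 1000 nM. IDH2, the mitochondrial isocitrate dehydrogenase, had 176, 160.4 and 182 FPKM in DMSO, 269.9, 254 and 257 at 100 nM and 176, 149.5 and 142 at 1000 nM. The 100 nM change was 0.59 (SE 0.12, limma adjusted p = 0.00969) and the step -0.74 (SE 0.12, limma adjusted p = 0.0297), and at 1000 nM the gene overlapped DMSO. CD69, a lymphocyte activation antigen, was the one protein-coding gene called higher between the doses. It had 49.1, 48 and 59.3 FPKM in DMSO, 38.8, 31.5 and 29.4 at 100 nM and 79.6, 68.2 and 54.1 at 1000 nM. The 100 nM change was -0.64 (SE 0.17, limma adjusted p = 0.0359) and the step 0.99 (SE 0.17, limma adjusted p = 0.04). The step call was lost in 6 of the 9 fits that left out a library for IDH2 and in all 9 for CD69, with steps from -0.83 to -0.68 and 0.86 to 1.14. EGR1, an immediate-early transcription factor, had 97.1, 111 and 78.8 FPKM in DMSO, 59.7, 56.8 and 37.3 at 100 nM and 103, 97.9 and 97.3 at 1000 nM. The doses did not overlap, and the step of 0.97 (95% interval 0.56 to 1.38) had an adjusted p of 0.0572 (0.0322 on the relative scale). In all 3 genes the 100 nM libraries enter both changes.

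Among 34 immediate-early genes 5 were lower and 3 higher at 100 nM, and 2 lower and 8 higher on the relative scale. Over all genes tested that scale gave 856 lower and 864 higher of 11804. MYC, the growth-promoting transcription factor, had 125, 96.8 and 125 FPKM in DMSO, 58, 23.8 and 61.5 at 100 nM and 91.8, 68.5 and 52.2 at 1000 nM, with 100 nM replicate 2 lowest. The 100 nM change of -1.36 (SE 0.32, limma adjusted p = 0.0196) lost its call without DMSO replicate 1 or 3 (adjusted p up to 0.0742) and on the relative scale (0.0587). The step of 0.64 (95% interval -0.06 to 1.34) was too wide to class. JUNB rose at 100 nM by 0.96 (SE 0.13, limma adjusted p = 0.00174) and had a step of 0.27 (95% interval -0.01 to 0.55), and CYR61, a matricellular protein, by 1.55 and 0.17 (95% interval -0.30 to 0.64). CCND1 and ABCB1, a D-type cyclin and a drug efflux pump, did not pass the filter of 1 FPKM in 3 libraries.

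MT2A and EFNA2 stepped down and stand in no list. MT2A, a metallothionein that binds zinc, had 1525, 1477 and 1633 FPKM in DMSO, 535, 449.7 and 478 at 100 nM and 273, 329 and 255 at 1000 nM. The 3 groups did not overlap, with -1.66 (SE 0.12, limma adjusted p = 5.03e-05) at 100 nM and -0.78 (SE 0.12, limma adjusted p = 0.0324) between the doses, a call lost in 7 of the 9 fits that left out a library. EFNA2, which encodes the membrane ligand ephrin-A2, had 1.67, 1.73 and 1.79 FPKM in DMSO, 2.6, 3.06 and 3.85 at 100 nM and 0.135, 0.44 and 0.867 at 1000 nM, low values throughout, and its step of -1.51 lost its call in all 9 fits. The other 7 genes called higher between the doses were noncoding. Of these SNORA28, a small nucleolar RNA chosen after its values were seen, was listed at 0.135, 0.132 and 0.162 FPKM in DMSO, 0.124, 0.169 and 0.112 at 100 nM and 92.3, 41.5 and 49.5 at 1000 nM. FPKM divides by gene length, which inflates such short genes, and no fold is given against values at the floor.

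The step between the doses was set against the same step in AMO1. In AMO1 2460 of 10503 genes (23.4%) were lower at 1000 than at 100 nM and the median gene moved by -0.43, against 0.008 in the libraries labelled XG1. A test of the difference between the 2 steps called 54 of 12792 genes higher (0.422%, a smaller fall or larger rise in the libraries labelled XG1) and 2 lower (0.0156%). The relative scale, which takes out the shift of the median gene, gave 19 higher and 20 lower. The count of 56 was 348, 26 and 10 without XG1 100 nM replicates 1, 2 and 3, 7, 10 and 36 without XG1 1000 nM replicates 1, 2 and 3, 10, 13 and 7 without AMO1 100 nM replicates 1, 2 and 3, and 1117 and 605 without AMO1 1000 nM replicates 1 and 3, so the count rests on single libraries.

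**Figure D5:**
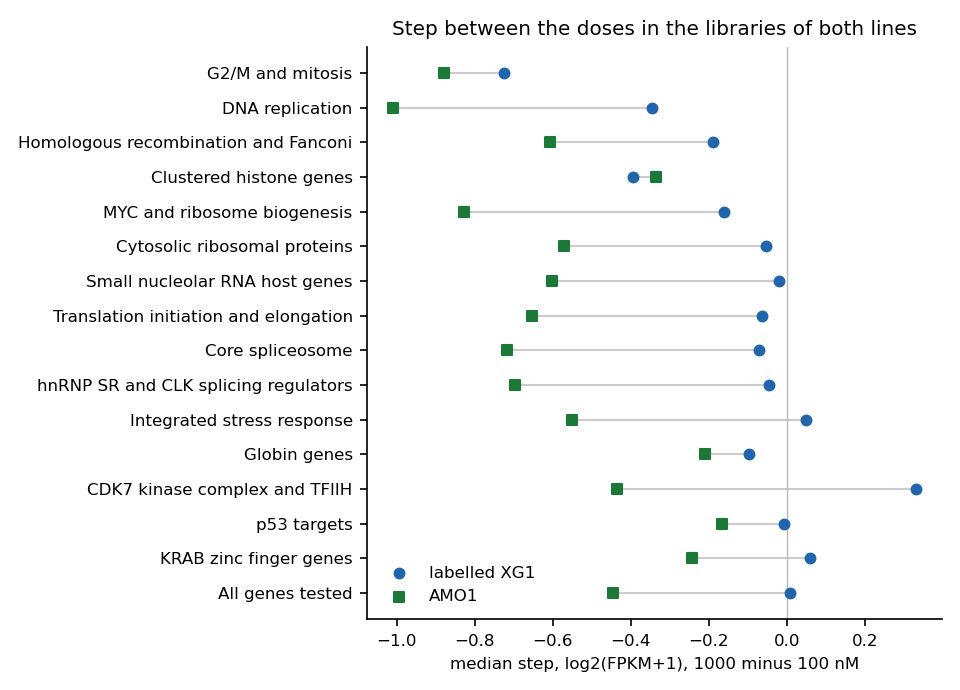
Median step between the doses, as log2(FPKM+1) at 1000 nM minus 100 nM, of the genes of 15 lists and of all genes tested, in the libraries labelled XG1 (circles) and in AMO1 (squares). The 2 lines stand closest for histones, globins and mitosis, and the median of all genes tested is near 0 in the one and below 0 in the other. The AMO1 medians cover 5 globin and 34 histone genes, against 9 and 47, so these are unlike sets. In AMO1 HBG1 had means of 0.567 and 0.777 FPKM at 100 and 1000 nM, where log2(FPKM+1) keeps a step small, while HBE1 had 63.5 and 30.2. Like steps of the globins are therefore not shown.

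By list, the mitosis genes had median steps of -0.73 in the libraries labelled XG1 and -0.88 in AMO1. In the difference 2 of 62 members were called higher, and 0 on the relative scale. Their median difference was 0.16, against 0.40 for all genes tested in the libraries labelled XG1. Relative to the median gene it was -0.16. AURKB stepped by -1.47 and -1.63, a difference of 0.16 (95% interval -0.29 to 0.61). The replication genes had medians of -0.34 and -1.01, with a median difference of 0.62 (0.18 relative to the median gene). In the difference 7 of 58 members were called higher (4 on the relative scale), against 0.422% of all genes tested. Some other lists had larger median differences, among them glycolysis (0.74) and the CDK7 complex and TFIIH (0.77). Ribosomal protein genes had medians of -0.05 and -0.57, and 0 of 78 members were called in the difference by limma, on either scale. Their median difference was 0.506, and -0.065 relative to the median gene. On simulated data the test of the difference recovered 0% of log2 changes of 0.5 and 35.8% of those of 1. A count of 0 therefore does not show like steps. RRM2 stepped by -0.84 and -2.63, a difference of 1.80 (SE 0.21, limma adjusted p = 0.000836) that kept its call in all 12 fits that left out a treated library and on the relative scale.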

How the data were processed

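QuantSeq 3' libraries of 2 lines (18 in all, 3 per group) were used as deposited. The submitters' processing notes name HISAT2, Cuffnorm and hg19, without versions. The deposited values are FPKM for 26249 genes and 92 ERCC spike-ins per library. The spike-in sums were nearly level between groups (group means 171365 to 184682 FPKM), so the values appear to have been rescaled to them, which is inferred and not described. Read depth was not stated in the sources used here, so precision comes from the replicates alone. FPKM divides by gene length, so levels are compared within genes only, on the log2(FPKM+1) scale, which understates the change of low genes.

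Genes that reached 1 FPKM in 3 or more libraries were tested with limma 3.58.1 (moderated linear model with a mean-dependent prior, R 4.3.3), two-sided, with Benjamini-Hochberg adjustment over all genes tested. The 9 libraries labelled XG1 were fitted together, and all 18 for the difference between lines. On simulated data the share of false calls between the doses was above the nominal threshold. Lists are described by counts and medians. The comparison, the lists and the rule for named genes were chosen with earlier results of these data known. Named were the 10 largest protein-coding changes each way between the doses, up to 3 stepped and 2 level genes per list, 5 level genes each way and 15 fixed genes, though not every gene of the rule is described; TOP2A, MKI67, CCNA2, CDC6, CCNE1, CDC25C, RRM2, MT2A, IDH2, EGR1 and SNORA28 were added after their values were seen. Alternatives were the relative scale, pseudocounts of 0.1 and 5 FPKM, no filter, a replicate block, array weights, the 6 treated libraries alone and leaving out each library. Figures were drawn with matplotlib.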

Additional observations from a re-analysis of the deposited data

Results flagged for a closer look

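For 11 named genes the step from 100 to 1000 nM differed between the libraries labelled XG1 and AMO1 by the test of that difference (limma, 18 libraries). The difference is given as the XG1 step minus the AMO1 step. CCNE1, a cyclin of S phase entry, differed by 1.81 (adjusted p = 0.0173): its step was 0.31 in the libraries labelled XG1 and -1.51 in AMO1. RRM2 differed by 1.80 (adjusted p = 0.000836), PCNA by 1.48 (0.047) and CDC6 by 1.40 (0.0173), all replication genes that fell less in the libraries labelled XG1. The chaperone gene HSPA5 differed by 1.27 (adjusted p = 0.0224), the cyclin gene CCNA2 by 1.10 (0.0449) and CCND3 by 0.96 (0.0309). VIM, the filament protein vimentin, differed by 1.73 (0.0275) and ISG15 by 1.62 (0.0311). EFNA2 differed by -1.67 (adjusted p = 0.0124), with low values throughout. SNORA28 passed the same test (adjusted p = 0.0456), but values at the floor enter it, so the fitted 7.14 moves with the pseudocount and is no measure of size.

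RRM2 and EFNA2 kept the call in all 12 fits that left out a treated library. CCNE1 and CDC6 lost it in 4 each, HSPA5, CCND3, VIM and ISG15 in 6 each, PCNA in 8, and CCNA2 and SNORA28 in 9 each. Relative to the median gene PCNA, CDC6, CCNA2, CCND3, VIM and SNORA28 lost it, and CCNE1, RRM2, HSPA5, ISG15 and EFNA2 kept it. No group had enough libraries for a test of single outlying samples.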

How the results depend on the processing

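No called value of a named gene changed sign, but the balance of calls did: 38 lower and 8 higher between the doses became 3 and 5 with the 6 treated libraries alone, 4 and 6 without 100 nM replicate 1 and 2 and 3 without 1000 nM replicate 3, and 1181 lower and 293 higher at 100 nM became 856 and 864 relative to the median gene. The 46 genes called between the doses became 115 relative to the median gene, 9 with no filter, 91 with array weights and 8 with the 6 treated libraries alone, and 2 to 82 with 1 library left out. On the relative scale that range was 36 to 116 around 115, a check added after seeing the data. The 1474 calls at 100 nM became 674 with no filter and 571 to 1876 with 1 library left out. The 1994 at 1000 nM became 1153 with no filter, 3873 with array weights and 1047 to 2619. The 1221 level genes became 588 with no filter, 648 with an interval within 1.5-fold and 471 to 1379. The 14 mitosis genes called became 3 with no filter, 23 with array weights, 1 with the treated libraries alone and 1 to 19 with 1 left out (relative scale 21, and 11 to 24). The 5 replication genes became 10 on the relative scale, 1 with no filter, 8 with array weights, 1 with the treated libraries alone and 0 to 8 with 1 left out (relative scale 10, and 6 to 10). The 56 genes differing between the lines became 114 with a pseudocount of 0.1, 25 with no filter and 7 to 1117 with 1 left out. The causes of these shifts were not tested.

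The labels give the groups the same replicate numbers. Over the XG1 groups, deviations of same-numbered libraries correlated at -0.044 to 0.157 and those of differently numbered ones at -0.137 to 0.093. Between DMSO and 100 nM the same-numbered pairs stood at 0.045, 0.157 and 0.151, above the others (-0.137 to 0.002). The main fit took the samples as unpaired, and whether the numbers mark pairs was not settled. A fit with the replicate block called 46 genes between the doses, 39 of them among the original 46, left 14 mitosis genes and 3 of the 5 replication genes called, and called 8 in place of 56 genes differing between the lines.

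Of 1320 values for named genes over the alternatives, 1122 stayed on their side of the threshold, 195 lost the call and 3 gained it. Of 624 list medians, 18 moved by more than the spread between replicates. With 3 libraries a group and a median SE of 0.227, steps well under 2-fold could seldom be called, and a gene not called is not shown to be unchanged.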

Other observations

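Of 63 oxidative phosphorylation genes, 12 were lower at 100 nM (3 lower and 3 higher on the relative scale) and 16 at 1000 nM, and 0 were called between the doses by limma (4 were lower and 3 higher at an unadjusted p under 0.05). NDUFB4, a subunit of respiratory complex I, averaged 377 FPKM in DMSO, 205 at 100 nM and 204 at 1000 nM, with a step of 0.00 (95% interval -0.28 to 0.28). Of 34 proteasome subunit genes, 6 were lower at 100 nM (1 on the relative scale), all 6 level, and 10 at 1000 nM. PSMA3, of the proteasome's outer ring, averaged 190.1, 108 and 125 FPKM in the same order, with a step of 0.22 (95% interval -0.11 to 0.54). Of 27 glycolysis genes 3 were lower at 100 nM, near the 10.0% of all genes tested (1 lower and 3 higher on the relative scale). SLC16A1, which exports lactate, averaged 109.6, 67.9 and 55 FPKM, and its 100 nM call was lost without DMSO replicate 3 (adjusted p up to 0.0894). Of 22 NF-kB targets 2 were lower at 100 nM, also near that share, and of 19 interferon-stimulated genes 1 was lower and 1 higher. IFIT3, an antiviral effector, averaged 2.81, 0.683 and 0.768 FPKM (its 100 nM call was lost without DMSO replicate 1, with an adjusted p of 0.0515) and ISG15, a ubiquitin-like modifier, 33.1, 78.2 and 90.3.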
